A study of Dunaliella salina with 9 samples.

Results

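The transcripts described here were those of the green alga Dunaliella salina that stood at about the same raised level after a step to moderate and after a step to strong light. They were chosen by measured values. Of 76875 transcript clusters listed, 78 had a mean of at least 5 CPM (the count scaled by the library's total) in both raised lights, at least 2 times the mean of the unshifted cells in both, and the raised means within 1.5-fold of each other. In addition, the lowest of the 6 libraries from raised light had to lie above the highest library of the unshifted cells. Because the rule used all 9 libraries and all 3 comparisons between them, the differences given for the 78 members are descriptions. Tests of those differences support nothing here.

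The cells grew at 22 °C in days of 16 h light and 8 h dark, were spun down in mid-exponential growth, were moved to fresh medium and were exposed to their final light. LL names the 3 libraries from cells held at 150 µmol photons m⁻² s⁻¹, ML the 3 from cells stepped up to 600, and HL the 3 from cells stepped up to 1500. No genotype or chemical treatment is given for any group, and no label says how long after the step the cells were taken. Library totals ran from 17778225 to 19643714 counts. The labels do not say whether the samples of a group were separate cultures, so any spread between libraries may be partly technical.

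Photosynthetic cells adjust to a rise in light by photoacclimation. As general background, green algae under excess light usually make less light-harvesting antenna, dissipate more absorbed energy as heat, repair photosystem II faster and detoxify reactive oxygen species, and Dunaliella salina is known for storing carotenoids under such stress. The rule looks for RNA levels that were raised in moderate light and were about the same in strong light, here called a plateau. Which of these processes the members belong to is not known here: the files do not pair the cluster numbers with gene names, and 0 of 76875 identifiers matched a gene of the Dunsal1 v. 2 assembly. Members are therefore described by their rank in abundance over the ML and HL libraries, from 1 to 78, and 2 of them are given by identifier.

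Few clusters were raised at both lights, and a plateau was about as frequent among them as closeness between ML and HL was in general. Means of at least 5 CPM in both ML and HL were found for 12375 clusters, and 140 of these had at least 2 times the LL mean in both. The 3 LL libraries lay below all 6 others for 125 of the 140. Of the 125, the 78 members made up 62.4%, while 34 clusters stood at least 1.5 times higher in ML than in HL and 13 at least 1.5 times higher in HL than in ML. Of all 12375 clusters at that level, 6848 (55.3%) had HL and ML means within 1.5-fold, so nothing is read from the 62.4%. The same rule turned over, for clusters lowered alike at both raised lights, gave 32 clusters.

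**Figure D1:**
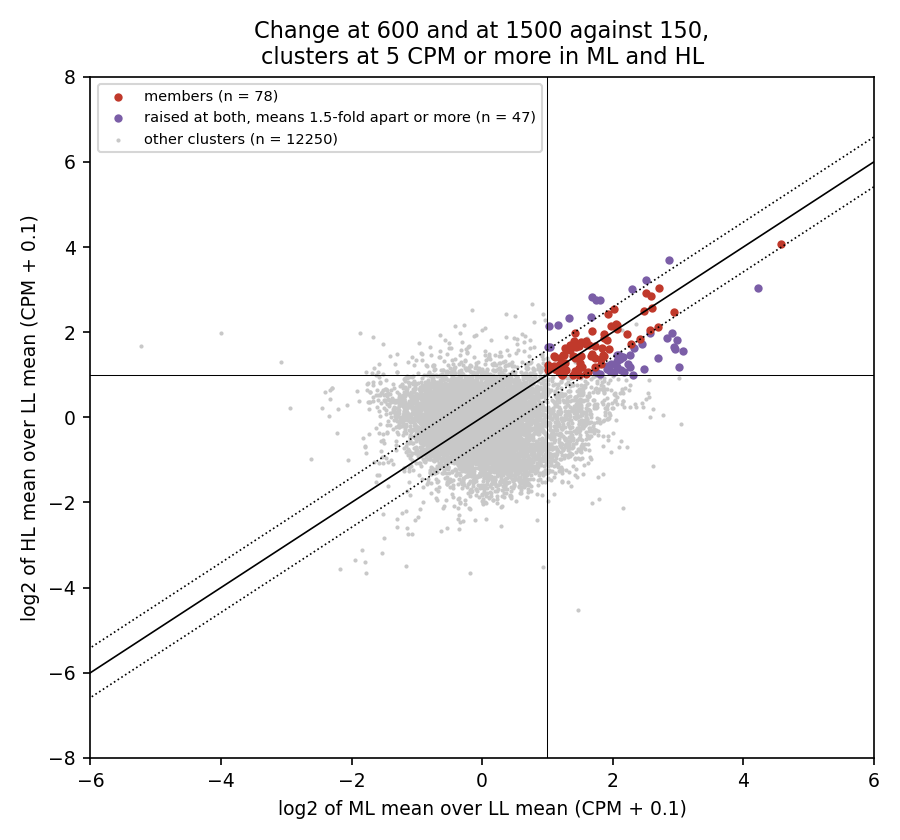
Log2 ratio of group means, ML over LL on the horizontal axis and HL over LL on the vertical axis, with 0.1 CPM added, for the 12375 clusters at 5 CPM or more in ML and HL (2 lie beyond the axes). The 78 members fall between the dotted lines at 1.5-fold, as the rule sets. They also lie above the thin lines at 2-fold, apart from ranks 38 and 72, which the added 0.1 CPM takes just below. The 47 other clusters raised at both lights fall on or outside the dotted lines.

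Members together held about 3 times as large a part of the library in raised light. Of all counts they took 0.532% ± 0.0072 at 150, 1.50% ± 0.030 at 600 and 1.57% ± 0.022 at 1500 µmol photons m⁻² s⁻¹ (SD, n = 3 each). Single libraries ranged from 0.528% to 0.541% in LL, from 1.49% to 1.54% in ML and from 1.54% to 1.58% in HL, so that the lowest HL library was just above the highest ML library. The sum rested on few members: the 3 most abundant held 64.4% ± 0.75 of the members' counts at 150, 57.2% ± 0.95 at 600 and 61.7% ± 0.72 at 1500 µmol photons m⁻² s⁻¹ (SD, n = 3 each). The 10 most abundant held 86.3% in LL, 85.0% in ML and 86.2% in HL. Counted in FPKM, which divides by length, the members made up 0.374% in LL, 0.991% in ML and 1.02% in HL.

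The members covered a wide range of abundance, and most rose less than 4-fold, with 2-fold as the lower limit that the rule sets. The LL means ran from 0.776 to 1690.0 CPM with a median of 5.10, the ML means from 5.24 to 3661 with a median of 15.5, and the HL means from 5.22 to 4486 with a median of 15.7. Averaged over the 6 raised libraries, 4 members lay above 1000 CPM, 11 between 100 and 1000, 38 between 10 and 100, and 25 below 10. The ratio of means over LL had a median of 2.79 in HL (quartiles 2.31 and 3.80, highest 18.7) and of 2.91 in ML (quartiles 2.43 and 3.84, highest 26.7). On the geometric mean of the ML and HL ratios, 42 members lay below 3-fold, 18 between 3-fold and 4-fold and 18 at 4-fold or above, of which 2 were at 8-fold or above. Only 4 of the 18 members at 4-fold or above reached 100 CPM.

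**Figure D2:**
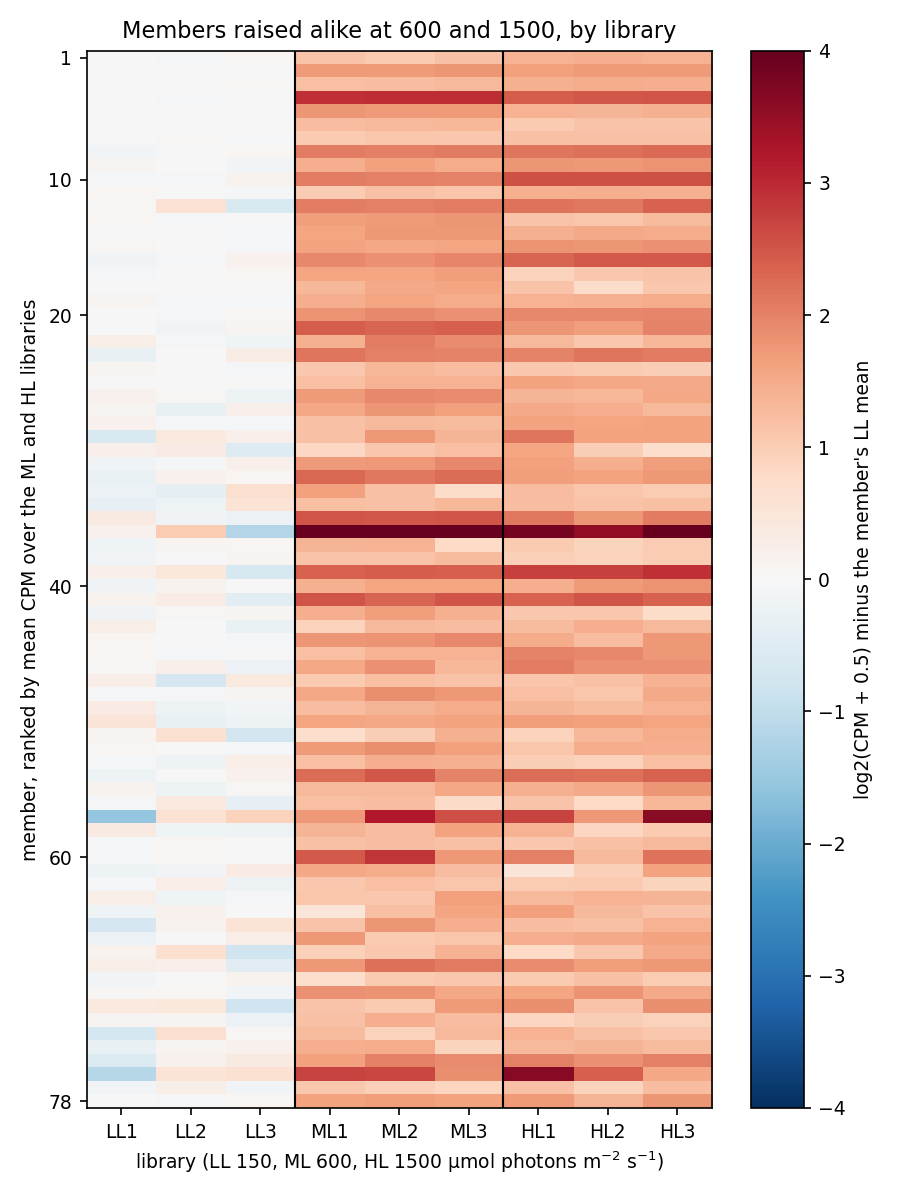
Each of the 78 members (rows, ranked by mean CPM over the ML and HL libraries) in each of the 9 libraries (columns), as log2(CPM + 0.5) minus the member's LL mean, with colours that end at 4. The ML and HL columns are of like shade in most rows, the most intense row is that of rank 36, and the rows of lower abundance vary more from library to library.

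The most abundant member was Cluster-5009.33686. It had 1658, 1638 and 1774 CPM in the LL libraries, 3709, 3461 and 3811 in ML, and 4392, 4592 and 4473 in HL. All HL libraries lay above all ML libraries, and all of these above LL. Means were 1690.0 ± 73.1, 3661 ± 180.0 and 4486 ± 101 CPM in LL, ML and HL (SD, n = 3 each), so this member gained 2.65-fold in HL over LL and 2.17-fold in ML over LL, near the lower limit of the rule.

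By library totals, the member ranked 2 had the closest HL and ML means among the 15 members at 100 CPM or more. Its values were 879, 889 and 874 CPM in LL, 2882, 2853 and 3006 in ML, and 2766, 2869 and 2839 in HL. The HL and ML libraries overlapped, and their means were 2825 ± 53.3 CPM in HL against 2914 ± 81.7 CPM for ML (SD, n = 3 each), a ratio of 0.970. With the TMM factors described below its log2 change in HL over ML was 0.16, and those of rank 14 (−0.00085) and rank 6 (0.019) were nearer to 0. The member ranked 3 had 851, 845 and 882 CPM in LL, 1989, 2035 and 2094 in ML, and 2319.6, 2412 and 2344 in HL, so that HL lay above ML without overlap at a ratio of 1.16.

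Cluster-5009.33827, ranked 4, had the widest empty space between LL and raised light among members with at least 1 CPM in LL. Its lowest raised library stood 5.34 times above its highest LL library. It was measured at 168, 162 and 169 CPM in LL, 1256, 1291 and 1302 in ML, and 904, 933 and 947 in HL. Although it passed the rule, its HL libraries all lay below its ML libraries, at a ratio of means of 0.723. Its fold over LL was 5.57 in HL and 7.70 in ML. No other member above 500 CPM in raised light exceeded 4-fold in either comparison.

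By library totals, the members ranked 5 to 10 repeated this range of shapes. The member ranked 5 had LL, ML and HL means of 249.7 ± 3.27, 828 ± 18.1 and 655 ± 10.6 CPM (SD, n = 3 each), with HL below ML in every library. For rank 6 they were 225 ± 3.06, 551 ± 19.1 and 485 ± 19.7, again with HL below ML. Rank 7 had LL at 232 ± 9.55, ML at 491 ± 11.3 and HL at 522 ± 2.24 CPM, with HL above ML in every library at a ratio of 1.06. With the TMM factors described below, its log2 change in HL over ML was 0.29, against 0.019 in rank 6. In rank 8 the LL, ML and HL means were 98.2 ± 6.66, 407 ± 11.1 and 451 ± 16.7 CPM, a rise above 4-fold in both lights. Rank 9, whose counts were whole numbers in all 9 libraries, had 134 ± 10.7, 383 ± 29.5 and 457 ± 12.5. Rank 10 lay close to the limit of the rule: its LL libraries had 53.1, 55.1 and 61.9 CPM, its ML libraries 234, 231 and 227, and its HL libraries 330.0, 336 and 334, a ratio of HL over ML of 1.45.

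**Figure D3:**
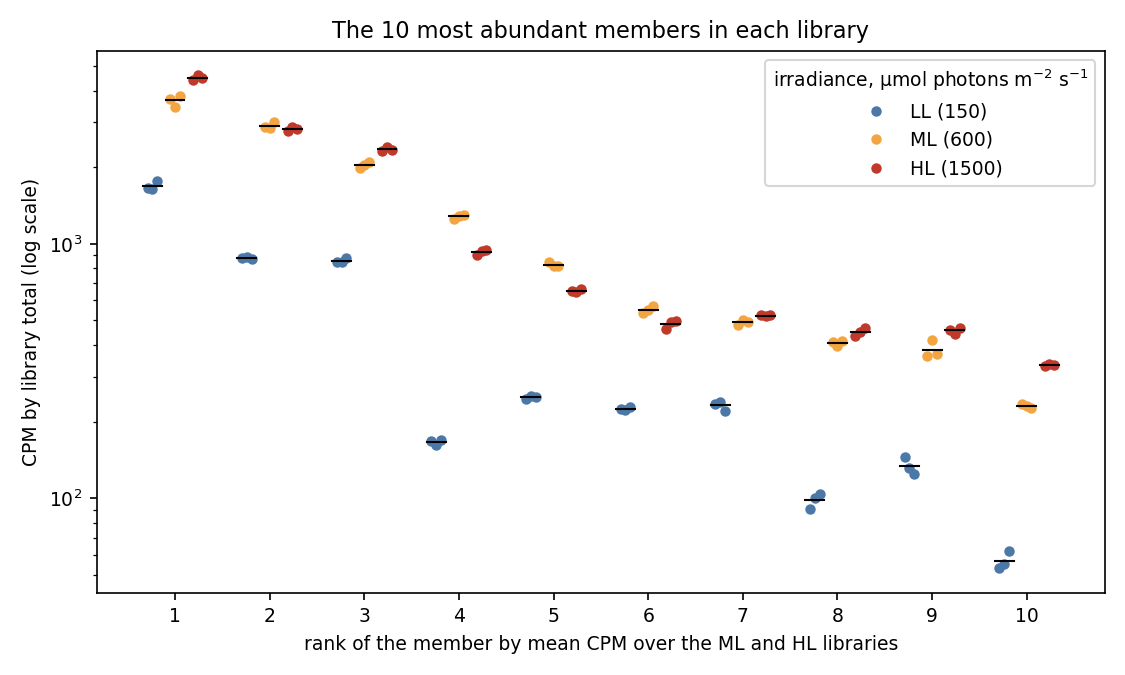
CPM by library total (log scale) of the 10 most abundant members in each of the 9 libraries, with points for libraries and bars for means of 3. In every member the LL points lie well below the others, while the HL points lie above the ML points in ranks 1, 3 and 7 to 10, below them in ranks 4 to 6, and among them in rank 2.

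The largest fold changes belonged mostly to members that were scarce in LL. The largest was that of rank 36, which had 0.769, 1.78 and 0 CPM in LL, 22.5, 23.5 and 22.1 in ML, and 15.5, 12.6 and 19.7 in HL. Only 47.4 estimated counts were summed over its 3 LL libraries, so the LL level, and with it the ratio of 18.7 in HL and 26.7 in ML, is uncertain. On the log2 scale, edgeR's model gave 4.35 (SE 0.56) in HL over LL and 4.66 (SE 0.56) in ML over LL. Its HL libraries lay below its ML libraries.

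The next 2 by fitted fold change were the least steady members of the list. Rank 76 had 0, 1.12 and 1.21 CPM in LL, 6.68, 6.67 and 3.51 in ML, and 13.3, 5.34 and 2.79 in HL. Rank 57 had 0, 1.74 and 2.25 CPM in LL, 4.36, 12.9 and 8.27 in ML, and 9.08, 4.36 and 17.2 in HL. In both, the HL libraries spread over about the same range as the ML libraries or a wider one, and the standard errors of their log2 fold changes over LL were 0.88 to 0.89. A count of 0 in an LL library was found for 3 members, these 2 and rank 36.

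Steadier members with large changes were found at about 10 to 20 CPM in raised light. Rank 41 had 2.68, 3.02 and 1.66 CPM in LL, 16.1, 13.9 and 16.0 in ML, and 14.5, 16.1 and 14.4 in HL, with log2 changes over LL of 2.77 (SE 0.18) in HL and 2.60 (SE 0.18) in ML. Its ML and HL libraries overlapped. Rank 39 had 2.59, 3.11 and 1.22 CPM in LL, 13.4, 13.9 and 13.5 in ML, and 17.4, 17.3 and 19.7 in HL, and so took a second, smaller step up. Rank 54 averaged 1.65 ± 0.265 CPM at 150, 9.66 ± 1.70 at 600 and 9.77 ± 0.60 at 1500 µmol photons m⁻² s⁻¹ (SD, n = 3 each). The other members among the 10 largest by fitted change were ranks 60, 35, 10 and 4. In rank 60 the means were 1.44, 9.86 and 6.65 CPM in LL, ML and HL, and in rank 35 they were 4.34, 26.4 and 18.4.

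Which members were flattest depended on the scaling. By library totals, the 5 with the closest HL and ML means were the low-abundance ranks 74, 59, 78, 67 and 54, whose log2 changes in HL over ML with TMM factors were about 0.20 to 0.22. With TMM, the values nearest to 0 were those of ranks 14, 31, 65, 24 and 6, at −0.00085, −0.0053, −0.0108, 0.0109 and 0.019. The 95% interval of the value in rank 65 was wide, from −0.71 to 0.69. Rank 14 had 44.6, 44.9 and 43.3 CPM in LL, 132, 148 and 149 in ML, and 118, 127 and 126 in HL. Rank 59 had 3.54, 3.91 and 3.63 CPM in LL, 8.93, 9.42 and 8.85 in ML, and 8.39, 9.01 and 9.79 in HL. Rank 78, the least abundant member, had 1.35, 1.27 and 1.45 CPM in LL, 5.13, 5.43 and 5.15 in ML, and 5.52, 4.28 and 5.85 in HL. In each of the 5 members closest by library totals the HL and ML libraries overlapped. The 95% intervals of the edgeR log2 change in HL over ML ran from −0.01 to 0.42 in rank 59, from −0.14 to 0.53 in rank 78 and from −0.12 to 0.57 in rank 54, all within 1.5-fold, and went beyond it in ranks 74 and 67, in rank 67 from −0.60 to 1.03.

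Among the members, HL and ML libraries that did not overlap were more frequent at higher abundance. By library totals, 39 members had a higher mean in HL than in ML and 39 a lower one, and the median ratio was 1.00 (quartiles 0.808 and 1.15). Means within 1.1-fold were found for 23 members. By the same totals, the HL libraries all lay above the ML libraries in 15 members, all below in 23, and overlapped in 40. With the TMM factors described below, the fitted change in HL over ML was above 0 in 51 members. Of the 15 members at 100 CPM or more, 14 had HL and ML libraries that did not overlap, against 22 of the 38 members at 10 to 100 CPM and 2 of the 25 below 10 CPM. How often the libraries of other clusters overlapped was not counted, so these numbers set nothing apart in the members. The median coefficient of variation within ML was 2.72% in the abundant members, 7.71% in the middle ones and 17.1% in the scarce ones.

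The balance between HL and ML depended on how libraries were scaled. The TMM factors of edgeR, which correct for a few abundant transcripts taking much of a library, were 0.905 to 0.928 in HL and 1.03 to 1.095 in ML, and so placed HL higher than library totals did. With them, the median log2 change of the members in HL over ML was 0.21, that of all 34377 clusters tested was −0.07, and that of the 12375 clusters at the members' minimum level was 0.19, close to the members' own. With library totals alone, the medians were 0.00052 and −0.28. In edgeR's quasi-likelihood test with TMM, 20 members were called higher in HL, where 28.9% of all clusters were, and 9 were called lower, where 29.9% of all clusters were. Of the 12375 clusters at the same minimum level, 46.6% were called higher and 28.95% lower in HL. Calls were at a Benjamini-Hochberg adjusted p below 0.05 over all clusters. With library totals alone the split turned to 11 higher and 19 lower, with limma on FPKM to 10 and 16, with RLE factors it was 21 higher and 5 lower, and with DESeq2 22 higher and 8 lower. Without the second HL library only 14 and 5 members were called. Shares of all clusters called were counted only for the TMM fit to all 9 libraries. The median over all clusters also moved, from −0.07 with TMM to −0.28 with library totals alone. The rule bounds this ratio, so the counts describe the members and show nothing further.

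Intervals say how alike the levels were. The 95% interval of the log2 change in HL over ML lay wholly within 1.5-fold for 38 of the 78 members, or 48.7%. It did so for 13.1% of all clusters tested and 33.7% of the 12375 at the same minimum level. Only 55.3% of the 12375 had means within 1.5-fold, which the rule demands of every member, so nothing is read from the higher share. Of these 38, 16 were also called different between HL and ML, so that a small difference was measured well enough to be bounded. Among the 15 abundant members 11 had such an interval, and among the 25 scarce ones 8 had one. In rank 6 it ran from −0.10 to 0.14 and in rank 2 from 0.05 to 0.27, while in Cluster-5009.33827 it ran from −0.37 to −0.16. For the other 40 members a difference beyond 1.5-fold was within the interval. The fitted change itself was beyond 1.5-fold in 5 members, ranks 10, 16, 29, 39 and 45, all toward HL. These 5 are level within 1.5-fold by library totals and not by TMM.

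**Figure D4:**
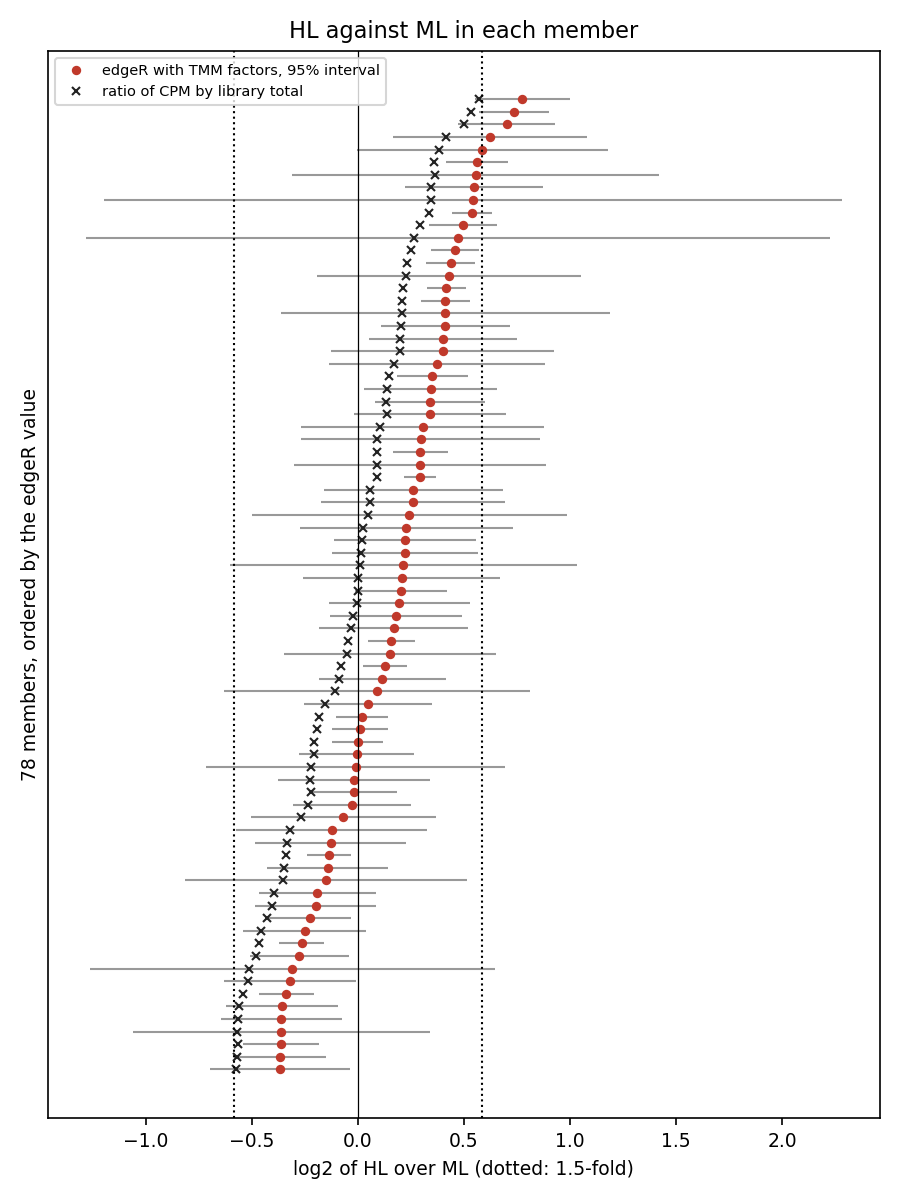
Log2 of HL over ML for each of the 78 members, ordered by the edgeR value (points, TMM factors, bars 95% intervals), with the ratio of means by library total as crosses. The crosses all lie within the dotted lines at 1.5-fold, as the rule sets, and each point lies to the right of its cross, with 5 points beyond the right line.

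Against LL, the same model called 78 of 78 members higher in HL, where 22.1% of all clusters were higher, and 77 of 78 higher in ML, where 17.1% were. Of the 12375 at the same minimum level, 34.8% were called higher in HL and 21.3% higher in ML. The rule chose the members on these contrasts, so nothing is read from the counts. All 78 passed the filter on low counts, which the minimum of 5 CPM makes likely. The member not called in ML was rank 51, with 5.14, 7.48 and 2.61 CPM in LL, 7.96, 9.80 and 13.4 in ML, and 9.29, 12.5 and 14.2 in HL, whose highest LL library nearly met its lowest ML library. The fitted log2 changes of the members ran from 1.17 to 4.35 in HL over LL, with a median of 1.65, and from 0.99 to 4.66 in ML over LL, with a median of 1.50. The medians over all clusters tested were 0.01 and 0.04, and over the 12375 at the same minimum level 0.05 and −0.15. With library totals alone the members' medians were 1.48 and 1.54 and those of all clusters −0.15 and 0.07.

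Some libraries could be read without having been used in a choice of clusters, although all were used in the choice of the members. The rule was applied to 2 libraries of each group, leaving out those numbered 1, 2 or 3. It chose 104, 104 and 75 clusters, of which 66, 71 and 63 were members. In the libraries left out, 47 of the 104, 50 of the 104 and 50 of the 75 were again at least 2 times above LL in both HL and ML and within 1.5-fold between them. The same was true of 0.878%, 0.842% and 1.24% of all clusters at 5 CPM or more in the ML and HL libraries left out. Any rise over LL in both lights was seen for 96, 92 and 71 of the chosen clusters, where 15.6%, 18.1% and 21.2% of all clusters at 5 CPM or more rose. Levels in HL and ML within 1.5-fold were seen for 75, 74 and 62, where 54.5%, 53.4% and 56.3% of all such clusters were that close. The median ratio over LL in the libraries left out was 2.45, 2.48 and 2.85 in HL and 2.37, 2.81 and 2.98 in ML. At least 2 times the LL level in both lights was seen for 57, 65 and 52 of the chosen clusters, against 1.34%, 1.41% and 1.81% of all clusters at 5 CPM or more. The chosen clusters did not have to reach 5 CPM in the libraries left out. The 3 rounds share libraries, and no test was made on single libraries. Since the labels do not state separate cultures, a library left out may not be independent of those used. The members were also chosen with earlier results of these data known. The counts therefore describe how often a choice by this rule repeated, and they are no test of the members.

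The edges of the list were set by the thresholds. The 5 members with the smallest ratio over LL lay at 2.00 to 2.04, and the 5 clusters that failed this demand only, by the least, at 1.97 to 1.99, among 618 that failed it only. The largest distance between ML and HL among members was 1.49-fold, and 47 clusters failed only here, the nearest at 1.51-fold. The lowest raised mean among members was 5.22 CPM, and 352 clusters failed only the minimum level, the nearest at 4.93 CPM with no count in LL. The gap between libraries kept out 13 clusters, the nearest with a lowest raised library at 0.9996 of its highest LL library. For 44 members the lowest raised library was at least 2 times the highest LL library, and for 14 at least 3 times.

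Measures that the rule did not use were length and the kind of count. The length implied by the ratio of count to FPKM was available for all 78 members and had a median of 1146 bases (quartiles 767 and 1877), against 1386 (857 and 2194) in the 12375 clusters at 5 CPM or more in ML and HL. It need not equal the length of the sequence, since the shortest member, rank 77, came to 39.3 bases. Fewer than 500 bases were implied for 8 members (10.3%, against 9.82% of the 12375), and at least 2500 for 9 (11.5%, against 18.99%). In the 34 clusters raised more in ML the median was 1084 bases, and in the 13 raised more in HL it was 2473. The longest member, rank 30, came to 6822 bases and had 14.3, 15.9 and 8.46 CPM in LL, 22.2, 26.7 and 29.4 in ML, and 37.9, 25.1 and 20.5 in HL. No test was made, since clusters are not independent replicates.

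Whole-number counts in all 9 libraries were found for 19 members (24.4%), against 43.6% of the 12375 clusters at the same minimum level. The others had decimals in all 9 libraries (48 members) or in some (11). Decimals can come from reads shared out among similar sequences, and the level of such a member is less certain because a related cluster can lend it counts. The 19 whole-count members had median log2 changes of 1.61 in HL over LL and 1.48 in ML over LL, against 1.65 and 1.50 for all 78. All 78 members, and all of the 12375, carried 5009 as the leading number of the identifier, as did 80.0% of all listed clusters. No source used here says what this number stands for.

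Over the members, libraries of a group differed most in the cells kept at 150. The median coefficient of variation over members was 14.4% between LL libraries, 7.98% between ML libraries and 7.69% between HL libraries, and over the 12375 clusters it was 6.84%, 6.53% and 5.996%. Over all listed clusters it was 44.5%, 41.5% and 45.1%, highest in HL. In LL the members were by choice well below their raised level, at a median of 5.10 CPM, and the part of low counts in the wider spread was not tested. A coefficient above 40% in ML or HL was found for 3 members, ranks 57, 61 and 76. The abundant rank 12 was uneven in LL alone, with 34.4, 50.1 and 21.9 CPM, against 141, 138 and 139.9 in ML and 153, 146 and 174 in HL.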

How the data were processed

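RNA of 9 samples was extracted with Trizol and made into NEBNext Ultra libraries for Illumina sequencing, per the labels' protocols, with groups taken from titles and irradiance labels. The authors deposited, per the file headers, estimated counts (unscaled, partly with decimals) and FPKM (scaled by the authors to length and depth) for each cluster and library. The submitters' processing notes name DESeq 1.10.1, and no source used here gives the assembler, aligner or counter.

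CPM was the count divided by the library's sum. Members and comparison lists were chosen with earlier results of these data known. For the tests, estimated counts were rounded and fitted in edgeR 4.0.16 (R 4.3.3) with default filtering by group (34377 clusters kept), TMM factors and a quasi-likelihood model (robust option) in which group was the sole term, with 6 residual degrees of freedom. A standard error is the log2 change divided by the square root of F, and 95% intervals use the model's t quantile. The fit was tested on simulated data. DESeq2 1.42.0 and limma 3.58.1 on log2(FPKM + 1) and log2(FPKM + 0.1) were alternatives, as were other scalings, filters and thresholds. Implied length was taken at an FPKM of at least 0.5. Between libraries of a group, a chi-square test of counts gave 6.77 to 11.1 per degree of freedom, so no pair agreed within counting noise, which does not show separate cultures. Identifiers were printed for the most abundant member and for the member with the widest gap to LL at 1 CPM or more. Gene lists and sequences were not used, since clusters have no names.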

Additional observations from a re-analysis of the deposited data

How the results depend on the processing

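Of 151 values recomputed under alternatives, 136 kept their direction and stayed within 1.5 times the count or within the spread, 13 moved and 2 turned. Most of these values were taken over the same 78 members, which the rule had chosen on all 9 libraries. The 136 are therefore no measure of support. The number of members, 78, depended most on the thresholds: 194 with a minimum of 1 CPM, 49 with 10 CPM, 49 with the tighter limit between ML and HL, 217 at 1.5-fold over LL, 14 at 4-fold and 19 among whole-count clusters. TMM factors gave 109 members (71 of them among the 78), RLE 110 (69) and FPKM 113 (64). Leaving out 1 library gave 69 to 92, and 48 members remained under all 9 such choices. The median log2 change in HL over LL was 1.65, and 1.48 with library totals alone, 1.34 with limma on log2(FPKM + 1) and 1.45 on log2(FPKM + 0.1). That in HL over ML was 0.21, and 0.00052 with library totals, −0.011 with limma on log2(FPKM + 1) and −0.014 on log2(FPKM + 0.1). The members' part of the library was 2.88 times the LL mean in raised light, 2.99 among whole-count clusters and 2.68 in FPKM. The causes were not tested, other than that thresholds and scaling act by construction.

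Leaving out 1 library in turn gave median log2 changes of 1.62 to 1.74 (HL over LL), 1.49 to 1.58 (ML over LL) and 0.14 to 0.21 (HL over ML). It gave 97.4% to 100% of members called in HL over LL, 91.0% to 96.2% in ML over LL and 24.4% to 38.5% in HL over ML, the lowest without the second HL library. Intervals within 1.5-fold were found for 38.5% to 53.8%, and the part of the library was 2.87 to 2.91 times LL. Over all clusters tested, the deviations of same-numbered libraries from their group means were nearly uncorrelated (−0.039 to 0.011). Such values cannot exclude a small shared effect, so they do not settle whether the numbers pair the libraries. With a replicate block 77, 71 and 24 members were called in HL over LL, ML over LL and HL over ML, against 78, 77 and 29. The rule used these comparisons, so nothing is read from the calls. Shares of all clusters called were not counted under these settings. Low counts limit the scarce members, of which 25 lay below 10 CPM.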
